A study of Mus musculus with 3 samples.

Results

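Sterol and fatty acid synthesis is run by a set of enzymes whose genes share a transcriptional control, the SREBP axis, and 41 genes of this axis were examined in CT26.WT cells, a mouse colon carcinoma cell line. They were taken by name: mevalonate pathway enzymes (7), enzymes from squalene to cholesterol (11), SREBP control genes (5), genes of sterol transport and the LXR axis (10), and fatty acid synthesis and desaturation genes (8). All probe sets that the platform annotation gives to exactly 1 of these symbols were used, which found 86 probe sets for 38 of the 41 genes, out of 18194 genes named on the array. No probe set carried the symbol of Acat2, Nr1h2 or Soat1 alone, and these 3 genes have no value here.

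The cells were kept without serum for 12 h. One culture then received 4 µg/ml of recombinant mouse S100a8 for 24 h and a second received the same amount of recombinant mouse S100a9 for the same time, while the third was the control. The labels of the control differ in what they name: its title gives BSA, and its description and the series design give normal saline. The RNA was read on Affymetrix Mouse Genome 430 2.0 arrays, 1 for each culture. Without replicates there is no test below and no error between cultures: each ratio sets one array against another, and having so few arrays limits how precise any value can be.

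Values are MAS5 signals as deposited, on a linear scale. Each gene is represented by its brightest probe set, and a gene was compared when the mean log2 signal of that probe set lay above a floor, the median of all signals (76.0). This held for 11139 genes and for all 38 members with a probe set, and in those members the used probe set was above the floor on every array. A difference of 1.2-fold (0.26 on the log2 scale) serves below as a descriptive size, not as a test. For scale, the log2 ratios of the 2 brightest probe sets of one gene differed with an SD per probe set of 0.20 (S100a8 to control), 0.16 (S100a9 to control) and 0.17 (S100a9 to S100a8), over 4950 genes. That spread holds the noise of probe sets within these arrays and leaves out the spread between cultures.

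The arrays had similar median signals (S100a8 78.6, S100a9 73.6, control 76.1). The 24 poly-A spike-in probe sets had median log2 ratios of 0.12 (S100a8) and 0.28 (S100a9) against control, and the 18 hybridisation spike-in probe sets had 0.02 and −0.01. Of 10 epithelial markers, 4 were above the floor: Krt18, Krt20, Epcam and Cdx2. Cdh1, which encodes E-cadherin, was below the floor throughout (42.6 with S100a8, 40.4 with S100a9, against 39.7 in the control), as were Krt8, Krt19, Vil1, Cldn7 and Lgals4. Of 8 mesenchymal markers 7 were above it, with a summed signal of 33882 (S100a8), 34922 (S100a9) and 35991 (control). Among 8 leukocyte markers, 6 had a probe set and 3 of these were above the floor (Cd68, Csf1r and Cd3e). The leukocyte markers summed to 1677 with S100a8 and 1426 with S100a9, against 1327 in the control, and Ptprc, which encodes the leukocyte antigen CD45, was below the floor (44.9 and 35.9, against 32.0). None of the 7 adipocyte and hepatocyte markers with a probe set was above the floor.

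As background, cells build cholesterol from acetyl-CoA through mevalonate, squalene and lanosterol. The SREBP transcription factors sit as precursors in the membrane of the endoplasmic reticulum bound to the escort protein Scap. When sterols are scarce, Scap carries them to the Golgi, where they are cut and released to the nucleus, and when sterols are plentiful, Insig proteins hold the complex back. Srebf2 encodes the form known mainly for cholesterol genes, and Srebf1 gives forms known mainly for fatty acid genes. Liver X receptors (LXRs) answer to oxidised sterols and raise genes of sterol export. SREBPs bind sterol regulatory elements and are known to act together with NF-Y, a factor that binds CCAAT boxes.

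Promoter windows from RefSeq (GRCm38.p6), 250 bases before to 50 after a start site, were given for 32 of the 41 genes, and they show what the members share in sequence. The letters CCAAT, searched on both strands, were in a window of 24 of these 32 genes, against 37.4% of all 32851 windows and 41.1% of all 27025 genes with one. All 9 squalene to cholesterol genes with a window held a CCAAT box, as did 5 of 6 mevalonate genes, 4 of 5 SREBP control genes, 4 of 7 transport and LXR genes and 2 of 5 fatty acid genes. Of 50 such boxes in member windows, 46 lay before the start site, where most of each window (250 of 300 bases) lies. The share over all windows was not counted. The sterol regulatory element searched as TCACNCCAC was in 1 member window, that of Hmgcs1, at positions −137 to −129 from the start site, against 1.24% of all windows. A looser spelling chosen after seeing that count, TCACNCNAC, was in the windows of Hmgcs1 and Nsdhl, against 2.70% of all windows. The LXR element of the DR4 type, a direct repeat of the receptor half-site with a spacer, was in 0 member windows and in 0.0152% of all. A match is a description of letters in these windows, and its absence says nothing on binding by the factor.

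The promoters of 5 members are shown as the 250 bases before the start site. That of Hmgcs1 holds the single strict sterol regulatory element. Those of Lss, Mvd and Hsd17b7 belong to sterol genes with some of the lowest ratios to control with S100a8, and that of Fasn belongs to a fatty acid gene whose signal was not below control. The last 4 were chosen after their values were seen. They lie at chr13:119690101-119690350 on the plus strand (Hmgcs1), chr10:76531355-76531604 on the plus strand (Lss), chr8:122443423-122443672 on the minus strand (Mvd), chr1:169969206-169969455 on the minus strand (Hsd17b7) and chr11:120824548-120824797 on the minus strand (Fasn), all in GRCm38.p6. Each is written 5′ to 3′ along the gene. Capitals mark CCAAT boxes on either strand (CCAAT or ATTGG) and, in Hmgcs1, the sterol regulatory element. In Fasn, 2 boxes on opposite strands overlap. Pmvk (−0.65 with S100a8) and Tm7sf2 (−0.60) had lower ratios than Hsd17b7 (−0.56) and Mvd (−0.55). Their windows hold 1 box each and are not printed.
Hmgcs1: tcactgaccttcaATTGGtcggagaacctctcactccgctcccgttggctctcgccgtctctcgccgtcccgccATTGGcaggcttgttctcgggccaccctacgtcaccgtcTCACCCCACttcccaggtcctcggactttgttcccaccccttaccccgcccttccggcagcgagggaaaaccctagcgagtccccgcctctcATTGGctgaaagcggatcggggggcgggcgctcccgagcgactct
Lss: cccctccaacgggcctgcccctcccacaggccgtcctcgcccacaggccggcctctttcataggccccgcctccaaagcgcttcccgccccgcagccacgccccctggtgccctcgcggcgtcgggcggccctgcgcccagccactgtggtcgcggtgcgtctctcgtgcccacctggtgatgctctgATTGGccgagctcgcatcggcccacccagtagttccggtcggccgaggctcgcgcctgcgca
Mvd: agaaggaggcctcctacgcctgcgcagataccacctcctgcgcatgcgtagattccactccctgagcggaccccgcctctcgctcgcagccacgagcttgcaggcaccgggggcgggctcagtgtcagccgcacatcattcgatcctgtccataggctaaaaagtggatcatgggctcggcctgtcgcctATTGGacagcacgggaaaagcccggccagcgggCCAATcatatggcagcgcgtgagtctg
Hsd17b7: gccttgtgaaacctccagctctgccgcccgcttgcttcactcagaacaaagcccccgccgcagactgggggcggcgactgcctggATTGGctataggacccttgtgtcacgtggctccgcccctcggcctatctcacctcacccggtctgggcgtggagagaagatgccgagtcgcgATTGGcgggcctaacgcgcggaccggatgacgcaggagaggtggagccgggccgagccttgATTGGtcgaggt
Fasn: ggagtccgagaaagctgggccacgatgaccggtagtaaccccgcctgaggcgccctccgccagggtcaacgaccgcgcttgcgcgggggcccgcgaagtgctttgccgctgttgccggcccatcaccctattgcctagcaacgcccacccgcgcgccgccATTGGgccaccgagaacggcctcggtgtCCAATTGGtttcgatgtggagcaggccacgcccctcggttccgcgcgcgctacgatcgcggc

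**Figure D1:**
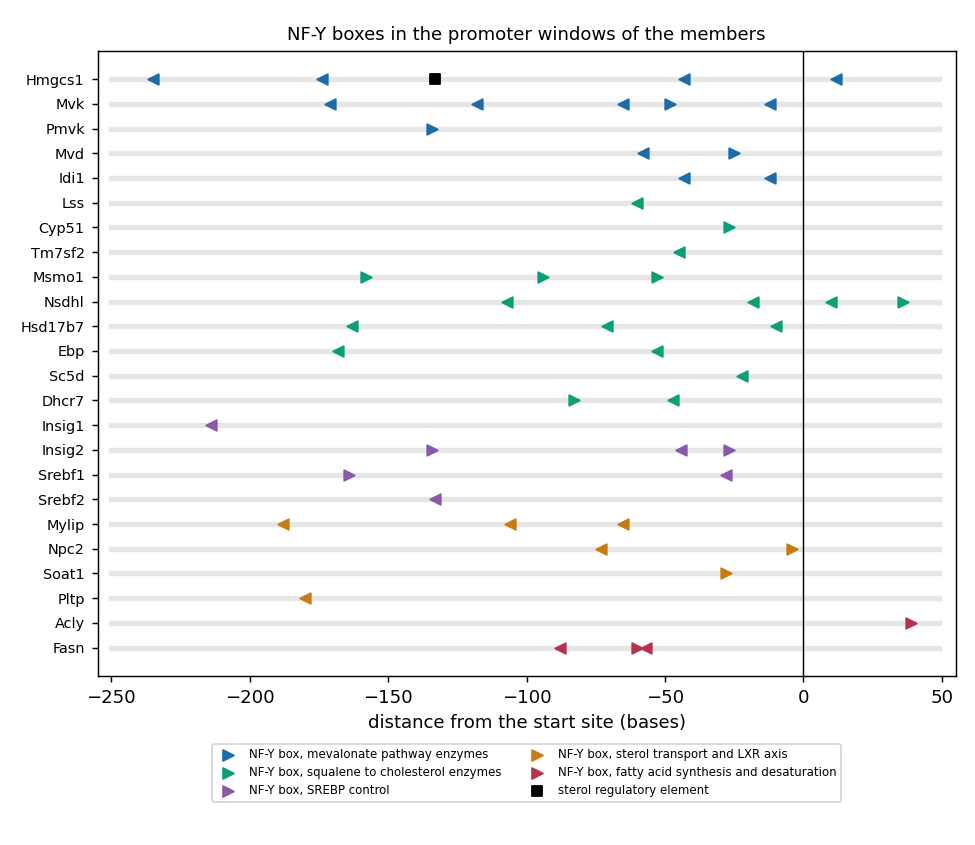
Position of CCAAT (NF-Y) boxes in the promoter windows of the 24 members that hold 1 or more, as distance from the start site in bases. Triangles point right for the gene's strand and left for the opposite strand, colours give the role of the gene, the black square is the sterol regulatory element of Hmgcs1, and the windows of Srebf1 are drawn on 1 line. Mvk holds 5 boxes, and Hmgcs1 and Nsdhl hold 4 each.

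All 6 measured mevalonate pathway genes had lower signals in S100a8-treated cells than in control cells, each by at least 1.2-fold. Their median log2 ratio was −0.41, against 0.01 for all compared genes, of which 11.2% were at least 1.2-fold lower. Over all 38 measured members 31 were lower and 7 higher than in the control with S100a8, where 47.5% and 52.5% of all compared genes were. With S100a9, 29 were lower and 9 higher, where 48.1% and 51.2% of all compared genes were. The S100a8 signals of the 6 mevalonate genes were 63.7% to 81.9% of the control signals. In bulk RNA, fewer cells of a type and less RNA per cell cannot be told apart. With S100a9 these 6 genes were also below control, with a median of −0.21 and 2 of 6 at least 1.2-fold lower, where 7.84% of all compared genes were. Both sets of ratios use the same control array, so they are not independent of each other.

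Pmvk, phosphomevalonate kinase, had signals of 633 with S100a8 and 796 with S100a9, against 994 in the control. Its log2 ratios (−0.65 and −0.32) were the lowest of the group for both proteins on brightest probe sets. Mvd, which decarboxylates mevalonate diphosphate, had 627 and 824, against 916 (−0.55 and −0.15), and was next to Pmvk with S100a8 but nearer to control than most of the group with S100a9. For Fdps, the enzyme that makes farnesyl diphosphate, the signals were 3731 and 4206, against 5104 (−0.45 and −0.28). These 3 genes had their lowest signal with S100a8 and their highest in the control. Idi1, the isomerase that supplies the allylic isoprene unit, had 1545 with S100a8 and 1869 with S100a9, against 2005 in the control (−0.38 and −0.10). Hmgcs1, the cytosolic HMG-CoA synthase, whose promoter is printed above, had 3774 and 4162, against 4850 (−0.36 and −0.22). Mvk, mevalonate kinase, had 606 and 642, against 740 (−0.29 and −0.20). On the brightest probe set of every one of the 6 genes, the S100a9 signal lay between the other two.

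Further probe sets in this group did not all go the same way. Of the 5 probe sets of Hmgcs1, 4 were below control with S100a8, with log2 ratios from −1.15 to 0.03, and all 5 were below it with S100a9, from −0.89 to −0.22. Those next in brightness to the one used had control signals of 3547 and 3490, against 4850. With S100a8 they were close to control (0.03 and −0.05). The second probe sets of Mvk and Idi1 were higher with S100a8 than in the control (0.32 and 0.30), opposite to the brightest ones, and lower with S100a9 (−0.12 and −0.51). Those of Mvd were both lower with S100a8 (−0.79 and −0.55). Thus 3 of the 4 mevalonate genes with several probe sets had mixed directions for S100a8 and 0 of 4 for S100a9.

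The steps from squalene to cholesterol had the same direction in nearly all genes. All 11 genes were lower with S100a8 than in the control (median log2 ratio −0.41). Of them 10 passed 1.2-fold, where 11.2% of all compared genes were lower by that size. With S100a9, 10 of 11 were lower (median −0.14). Only 1 passed 1.2-fold, where 7.84% of all compared genes did so downward. Taken over both groups of sterol synthesis enzymes, 16 of 17 genes were at least 1.2-fold lower with S100a8, 3 of them by at least 1.5-fold, a size that 1.91% of compared genes reached. With S100a9 0 members were 1.5-fold apart from control in either direction, a size reached by 0.853% of compared genes downward and 0.251% upward. Epithelial markers had the same order of summed signals as these enzymes, with 1838 for S100a8 and 2021 for S100a9, against 2219 in the control, most of it from the keratin gene Krt18 (1032 and 1236, against 1447). The median log2 ratio of the 4 epithelial markers above the floor was 0.04 with S100a8, with 2 lower and 2 higher. With S100a9 it was −0.12, with 3 lower and 1 higher. Cdx2 (0.28 and 0.11) was above control with both proteins, and Epcam (0.16 and −0.24) with S100a8 only. Both were dim, with control signals of 101. The dimmest of 4 brightness bins of all compared genes, described below, had a median of 0.14 with S100a8. The mesenchymal sum given above also had the order of the enzymes, and all 7 mesenchymal markers above the floor were lower with S100a8 and 6 of 7 with S100a9. Pdgfrb is a growth factor receptor of mesenchymal cells (−0.92 with S100a8 and −0.76 with S100a9), and Dcn is a matrix proteoglycan (−0.92 and −0.28). On brightest probe sets, both had lower S100a8 ratios than any sterol synthesis gene. Dimmer probe sets of Hmgcs1 (−1.15) and Msmo1 (−0.94) were lower still. That of Msmo1 lay near the floor with S100a8 (79.1, against 152 in the control). The part of these markers, and of the spike-in differences given above, in the sterol gene ratios was not tested.

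Lss, which closes the ring system of lanosterol, had the lowest ratio of all members for each protein on brightest probe sets. Its signals were 935 with S100a8 and 1087 with S100a9, against 1550 in the control, or 1.66-fold and 1.43-fold lower. Tm7sf2, a sterol C14 reductase, had 180.2 and 255.9, against 273.3. Its log2 ratio was −0.60 with S100a8 and −0.10 with S100a9. On brightest probe sets this was the widest separation of the proteins among sterol synthesis genes (0.51). Dimmer probe sets of Mvd (0.53) and Idi1 (−0.81) had S100a9 to S100a8 ratios further from 0. Hsd17b7, a 3-ketosteroid reductase, had 537 and 688, against 793 (−0.56 and −0.20). Dhcr7, which reduces 7-dehydrocholesterol to cholesterol, had 518 and 660, against 696 (−0.43 and −0.08).

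Sc5d, the sterol C5 desaturase, had signals of 1475 with S100a8 and 1790 with S100a9, against 1970.2 in the control (−0.42 and −0.14). Fdft1, squalene synthase, had 1802 and 2059, against 2390 (−0.41 and −0.21). Cyp51, the lanosterol demethylase, had 3608 and 3891, against 4495 (−0.32 and −0.21). Again the order was S100a8, S100a9, control. The 3 remaining enzymes that remove the C4 methyl groups or shift the ring double bond were nearest to control among those past 1.2-fold. Nsdhl had 2276 and 2554, against 2814 (−0.31 and −0.14), Ebp had 2202 and 2474, against 2693 (−0.29 and −0.12), and Msmo1 had 3731 and 3963, against 4546 (−0.29 and −0.20). Sqle, squalene epoxidase, was the exception. It had 3682 and 3851, against 3825, which differed by less than the probe set spread (−0.05 and 0.01).

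For S100a8, all 21 probe sets above the floor in the squalene to cholesterol group were below control, and all 6 genes with several probe sets had a single direction. Lss was at −0.73, −0.52 and −0.32 in its 3 probe sets, and Hsd17b7 at −0.56, −0.51 and −0.45. Cyp51 reached −0.79 and Msmo1 −0.94 in their dimmest probe sets above the floor, that of Msmo1 from a signal near the floor (79.1). With S100a9, 19 of the 21 were lower. The exceptions were the probe set of Sqle and 1 of 3 probe sets of Fdft1 (0.07).

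**Figure D2:**
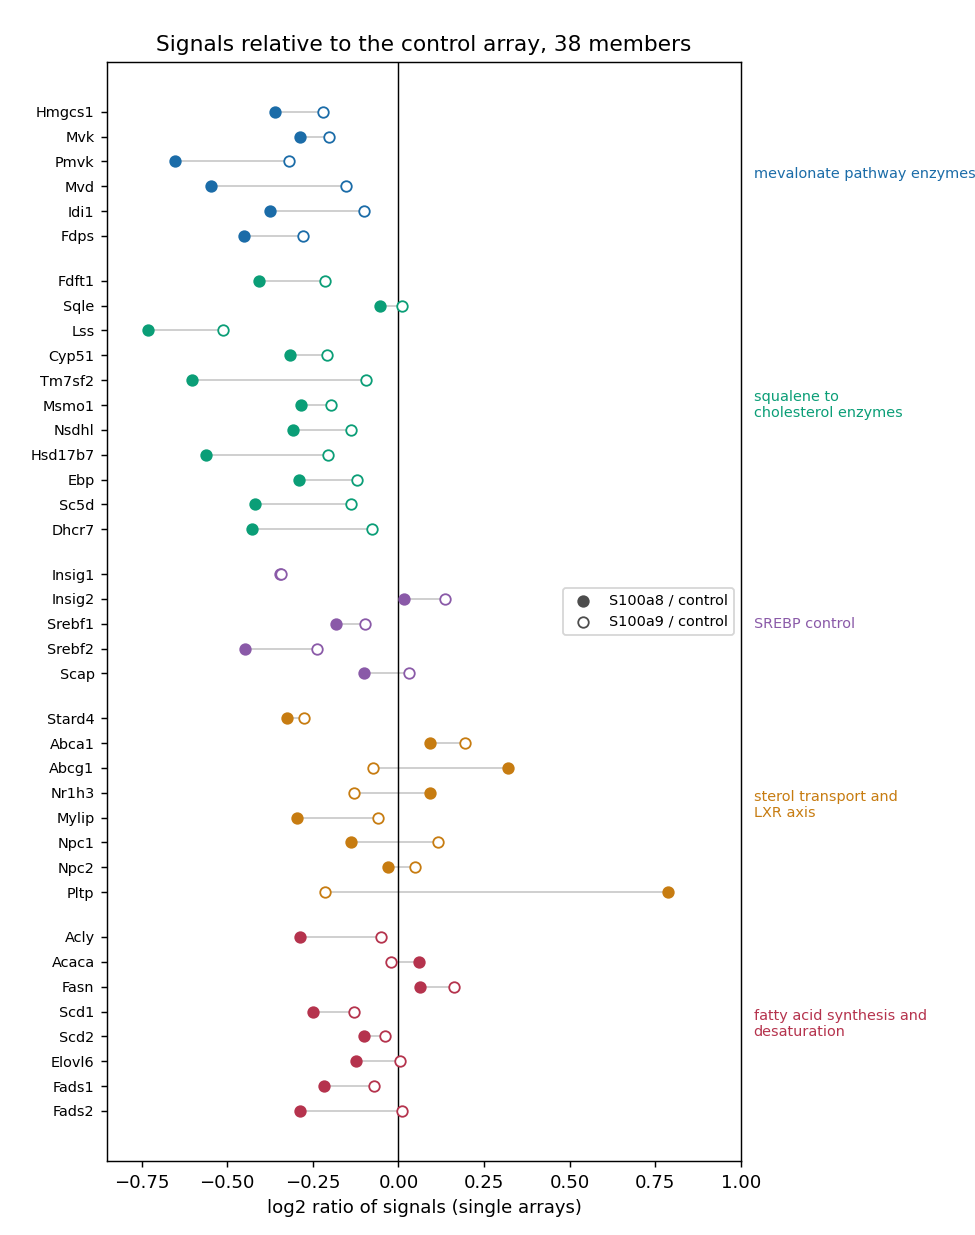
Log2 ratio of the signal of each of the 38 members to the control array, for the S100a8 array (filled) and the S100a9 array (open), grouped by role. Each point is the brightest probe set on 1 array, so there are no error bars. All 17 sterol synthesis genes lie left of 0 for S100a8, and 16 of 17 do so for S100a9.

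Among the SREBP control genes, the differences were gene by gene. With S100a8, 4 of 5 were lower than in the control (median log2 ratio −0.18), and 2 were at least 1.2-fold lower, a size reached by 11.2% of all compared genes. With S100a9, 3 of 5 were lower (median −0.10), 1 of them by that size, where 7.84% of all compared genes were. Srebf2, the factor known for cholesterol genes, had signals of 1163 with S100a8 and 1344 with S100a9, against 1585 in the control (−0.45 and −0.24). Its second probe set was at −0.29 and −0.03. Srebf1 had 2272 and 2409, against 2577 (−0.18 and −0.10).

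Insig1, itself a known SREBP target that holds Scap in the endoplasmic reticulum, had signals of 4673 with S100a8 and 4682 with S100a9, against 5933 in the control. Both log2 ratios were −0.34, so that of the 38 members this was the one in which the treated arrays differed least from each other (0.0029). Insig2, its relative, had 1224 and 1330.0, against 1210.2, with log2 ratios of 0.02 and 0.14. Of the 3 probe sets of Insig2, 1 was below control with S100a8 (−0.17) and 0 were with S100a9. Scap had 1098 and 1203, against 1177 (−0.10 and 0.03), a difference smaller than the probe set spread.

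Genes of sterol transport and the LXR axis did not move as a group. With S100a8, 4 of 8 measured genes were lower and 4 higher than in the control, the median log2 ratio was 0.03, and 2 genes were past 1.2-fold in each direction. That size was reached upward by 13.8% and downward by 11.2% of all compared genes. With S100a9, 5 of 8 were lower, 1 by at least 1.2-fold and 0 higher by that size. Of all compared genes, 7.84% were lower and 6.08% higher by that size. The median of the group with S100a9 was −0.07.

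Pltp, the phospholipid transfer protein and a known LXR target, had the highest ratio of all members with S100a8, and was the 1 member at least 1.5-fold higher, where 1.13% of all compared genes were. Its signal was 303 with S100a8 and 151 with S100a9, against 176 in the control (0.79 and −0.21). The signals are modest, and the other Pltp probe set was below the floor on each array (50.7 with S100a8 and 41.8 with S100a9, against 55.4 in the control). Abcg1, a sterol exporter, had 1149 and 875, against 920.3 (0.32 and −0.07), while its second probe set was at −0.11 and −0.03. Each was above control on the S100a8 array and below it on the S100a9 array, in its brightest probe set. When all compared genes were split by brightness into 4 equal bins, the dimmest 2785 genes had a median of 0.14 with S100a8 and the other bins had medians of −0.02, −0.02 and −0.0047. Nr1h3 was the 1 member in the dimmest bin, and Pltp lay in the next one, whose median was −0.02.

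Abca1, the exporter that loads cholesterol onto apolipoproteins, had signals of 1499 with S100a8 and 1608 with S100a9, against 1406 in the control (0.09 and 0.19). Nr1h3, which encodes LXR alpha, was dim at 117 and 100.03, against 109 (0.09 and −0.13). Mylip, a ubiquitin ligase induced by LXRs that degrades lipoprotein receptors, had 983 and 1159, against 1208 (−0.30 and −0.06). So the known LXR targets Pltp, Abcg1, Abca1 and Mylip had log2 ratios from −0.30 to 0.79 with S100a8.

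Stard4, a cytosolic sterol carrier known as an SREBP target, was lower with both proteins. Its signals were 2128 with S100a8 and 2200.5 with S100a9, against 2666 in the control (−0.33 and −0.28). All 3 of its probe sets were lower with S100a8, from −0.43 to −0.07, and 2 of 3 with S100a9. Npc1 and Npc2, which pass cholesterol out of lysosomes, were close to control. Npc1 had 455 and 543, against 501 (−0.14 and 0.12). Npc2 had 6561 and 6943, against 6707 (−0.03 and 0.05).

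Fatty acid genes lay nearer to control, as a group, than the sterol synthesis genes did. With S100a8, 6 of 8 were lower than in the control (median log2 ratio −0.17), and 2 were 1.2-fold lower or more, against 11.2% of all compared genes. With S100a9, 5 of 8 were lower (median −0.03), 0 of them by that size, against 7.84%. The signals were 81.9% to 104.5% of control with S100a8 and 91.3% to 111.8% with S100a9.

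Acly, which makes cytosolic acetyl-CoA from citrate, had signals of 3501 with S100a8 and 4119 with S100a9, against 4269 in the control (−0.29 and −0.05). All 4 of its probe sets above the floor were lower with S100a8, from −0.40 to −0.27. Acaca, acetyl-CoA carboxylase, had 1575 and 1489, against 1512 (0.06 and −0.02). Fasn, the fatty acid synthase, had 3241 and 3468, against 3102 (0.06 and 0.16). These enzymes commit carbon to fatty acid chains, and with S100a8 neither gene was below control or apart from it by more than the probe set spread.

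Desaturases and the elongase were mostly below control with S100a8. Fads2, the delta-6 desaturase, had signals of 595 with S100a8 and 733 with S100a9, against 727 in the control (−0.29 and 0.01). Fads1, the delta-5 desaturase, had 2576 and 2848, against 2993 (−0.22 and −0.07). The stearoyl-CoA desaturase Scd1 had 5744 and 6241, against 6833 (−0.25 and −0.13), and its second probe set was at −0.02 and 0.02. Scd2, a close relative of Scd1, had 9196 and 9592, against 9863 (−0.10 and −0.04), and its dimmest probe set was at −0.46 and −0.34. Elovl6, which elongates palmitate, had 1435 and 1569.9, against 1565 (−0.13 and 0.00). Apart from Fads2 and Acly, no fatty acid gene reached 1.2-fold on its brightest probe set.

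**Figure D3:**
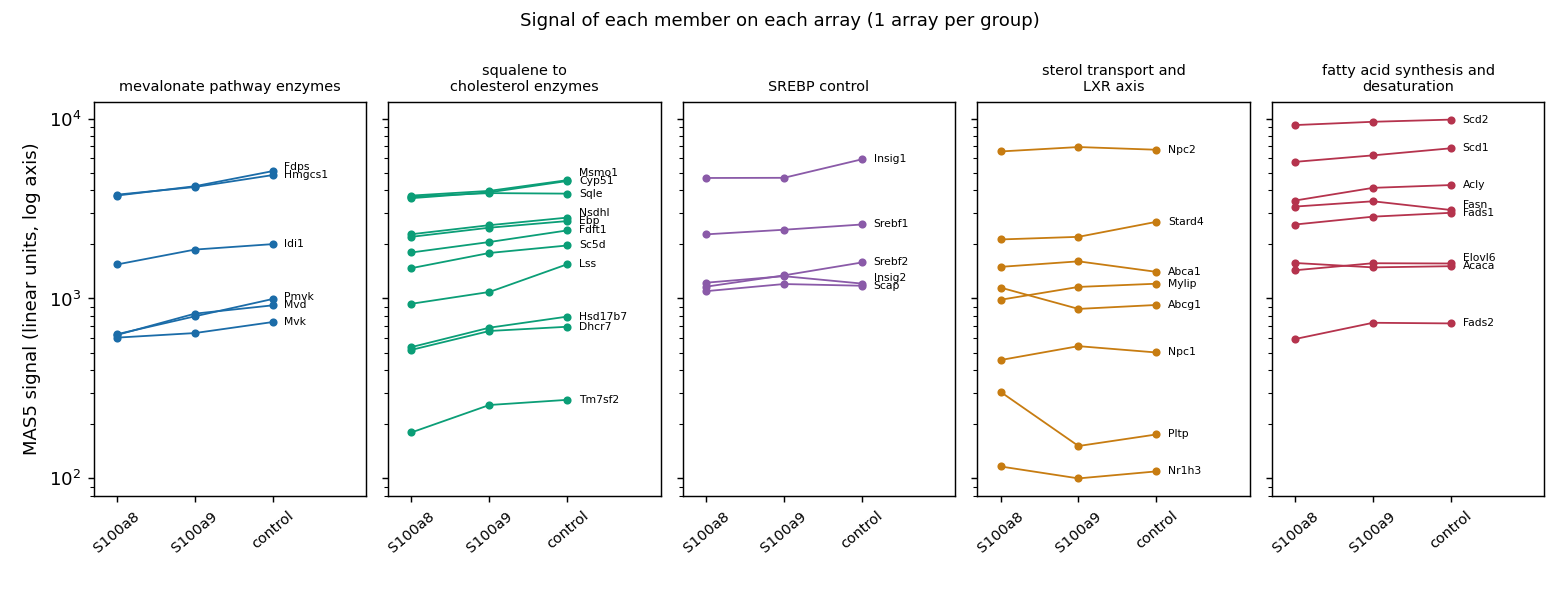
MAS5 signal (linear units on a log axis) of each of the 38 members by array (S100a8, S100a9, control) and role, with 1 array per group and lines joining the values of a gene. Levels of different genes depend on their probes and are not compared. Most lines of the sterol synthesis panels climb from S100a8 to control, while those of Pltp and Abcg1 are highest on the S100a8 array.

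The S100a9 array can also be set against the S100a8 array. On the log2 scale this ratio is the S100a9 ratio to control minus the S100a8 ratio to control. It is therefore not independent of them. Here 34 of 38 members had higher signals with S100a9 than with S100a8, among them all 17 sterol synthesis genes on their brightest probe sets (with probe sets averaged, Mvk at −0.18 and Idi1 at −0.27 were lower). The median log2 ratio of S100a9 to S100a8 was 0.14 over all members and 0.19 over sterol synthesis genes, against 0.02 for all compared genes, of which 54.9% were higher and 45.1% lower. At least 1.2-fold higher with S100a9 were 8 members, 7 of them sterol synthesis genes, and this size was reached by 4.27% of all compared genes. They were Tm7sf2 (1.42-fold), Mvd (1.31-fold), Hsd17b7 (1.28-fold), Dhcr7 (1.27-fold), Pmvk (1.26-fold), Fads2 (1.23-fold), Sc5d (1.21-fold) and Idi1 (1.21-fold). Further probe sets of Idi1 (−0.81), Mvk (−0.44) and Hmgcs1 (−0.26 and −0.19) went the other way. At least 1.2-fold lower with S100a9 were 2 members, Pltp (2.00-fold) and Abcg1 (1.31-fold), where 10.8% of all compared genes were. At 1.5-fold, 1 member (Pltp) was lower and 0 were higher, against 1.01% and 0.0988% of all compared genes.

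On the brightest probe sets, the 3 arrays stood in the order S100a8, S100a9, control, from low to high, for 25 of 38 members. This order held for 16 of 17 sterol synthesis genes, all but Sqle, and for 3 of 5 SREBP control, 4 of 8 fatty acid and 2 of 8 transport and LXR genes. Among all compared genes 23.6% had this order. The order restates the ratios above and is not separate from them. Once each array was centred on its median signal, the count of members 1.2-fold higher with S100a9 than with S100a8 was 15 and not 8. That centring scales all signals of an array by the same factor, and the share of all compared genes after it was not counted. The count of members was 5 with brightness bins centred, 4 with all probe sets of a gene averaged and 5 with those above the floor averaged.

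**Figure D4:**
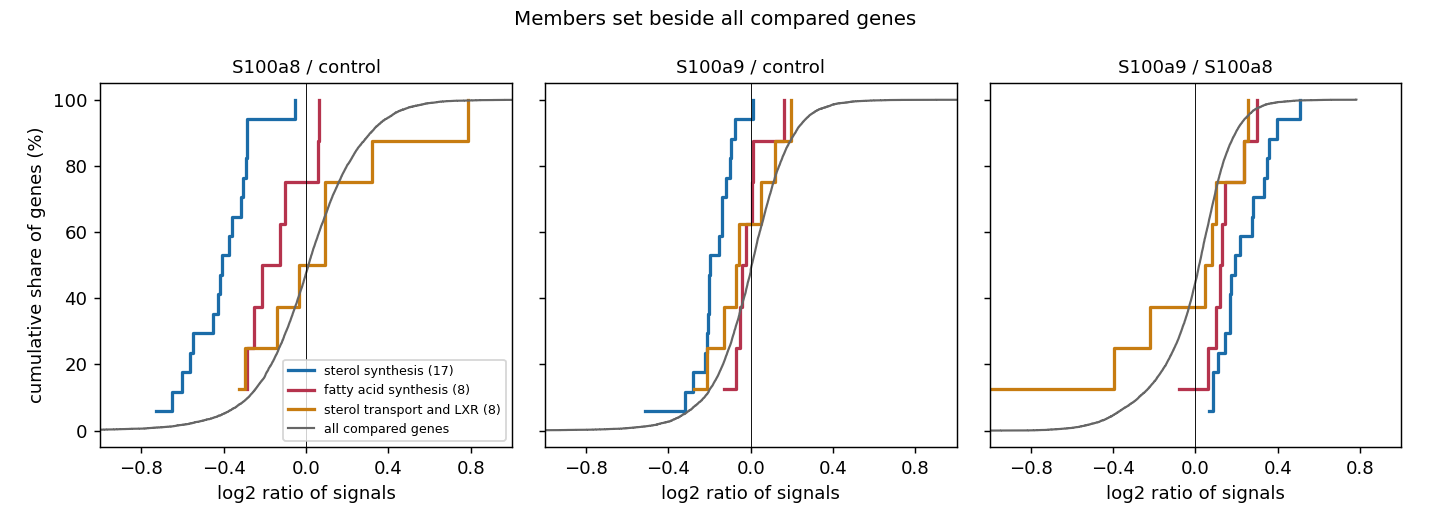
Cumulative share of genes (%) against the log2 ratio of signals, for S100a8 to control, S100a9 to control and S100a9 to S100a8. Coloured steps are 17 sterol synthesis, 8 fatty acid and 8 sterol transport and LXR genes, and the grey line is all 11139 compared genes (the axis ends at −1 and 1). The sterol synthesis curve lies left of the grey line for both proteins against control, and right of it for S100a9 against S100a8.

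Because probe sets of a gene share RNA and array, they are not replicates, but they bear on how firm a ratio is. Of 21 members with several probe sets above the floor, 14 had all of them lower with S100a8 than in the control, 7 were mixed and 0 had all higher. With S100a9, 13 had all lower, 6 were mixed and 2 (Insig2 and Elovl6) had none lower. Over all 74 member probe sets above the floor, 61 were lower with S100a8 and 56 with S100a9, with median log2 ratios of −0.29 and −0.12. On brightest probe sets, 47.5% of all compared genes were lower with S100a8 and 48.1% with S100a9. Counts over all genes with several probe sets were not made, here or for the groups above. How much agreement is usual on these arrays is therefore not known here. Mixed directions for S100a8 were those of Hmgcs1, Mvk, Idi1, Insig2, Abcg1, Npc2 and Elovl6.

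**Figure D5:**
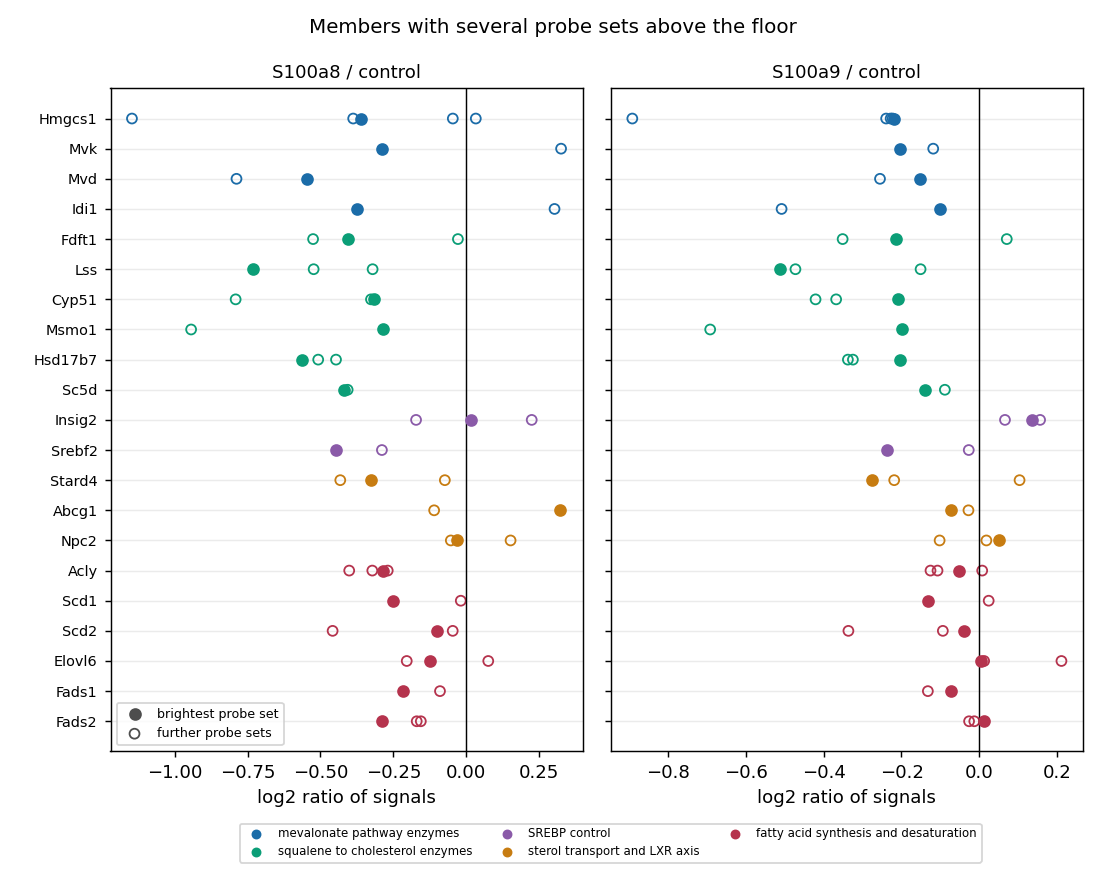
Log2 ratio to the control array of every probe set above the floor for the 21 members that have several, with the S100a8 array on the left and the S100a9 array on the right. Filled points are the brightest probe set, open points the further ones, and colours give the role. For S100a8, Mvk and Idi1 each have 1 point on either side of 0, while the points of Lss, Hsd17b7 and Sc5d all lie below it.

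Other genes of the pathway were taken from lists by role, and most lay near control. Counts past 1.2-fold in these lists stand beside 11.2% of all compared genes lower and 13.8% higher with S100a8, and 7.84% lower and 6.08% higher with S100a9. Of 20 further lipid synthesis genes 18 were compared, and 5 were at least 1.2-fold lower with S100a8 and 0 higher, with a median of −0.04. With S100a9, 4 were lower by that size and 0 higher, with a median of −0.05. Acss2, which makes acetyl-CoA from acetate, had signals of 305 with S100a8 and 398 with S100a9, against 519 in the control (−0.77 and −0.38). Lpin1, a phosphatidate phosphatase and transcriptional coregulator, had 504 and 562, against 858 (−0.77 and −0.61). The highest ratios were those of Hsd17b12, of the fatty acid elongation cycle (0.17 and 0.18), Gpam, which starts glycerolipid synthesis (0.17 and 0.14), and Me1, the cytosolic malic enzyme (0.11 and 0.17). Slc25a1, the mitochondrial citrate carrier, had −0.49 and −0.38 and was named after its values were seen.

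Of 12 listed genes for SREBP processing and regulation, 8 were compared, with medians of −0.03 (S100a8) and −0.07 (S100a9). With S100a8, 2 were at least 1.2-fold lower and 1 higher, and with S100a9 0 were in either direction. Mbtps1, the site-1 protease that cuts SREBPs in the Golgi, was at −0.29 and −0.20, and Fbxw7, which marks nuclear SREBPs for degradation, at −0.27 and −0.14. Rxra, a partner of LXRs, was at 0.45 and −0.04, and Rxrb, of the same family, at −0.21 and −0.26. Ppargc1b, a coactivator, was at 0.24 and 0.12, and Rnf139, a ubiquitin ligase of the endoplasmic reticulum, at 0.09 and 0.11. Of 15 sterol handling genes 11 were compared, with medians of −0.09 for each protein, 2 at least 1.2-fold lower and 1 higher with S100a8, and 0 lower and 1 higher with S100a9. Abcg4, a relative of Abcg1, was at 0.44 and −0.12. The cholesterol ester hydrolase Nceh1 was at 0.14 and 0.36, and the lysosomal one, Lipa, at 0.13 and 0.23. Of the sterol carriers of the Gramd1 family, Gramd1a was at −0.31 and −0.09, and Gramd1b at −0.11 and −0.26. Lpcat3, a phospholipid remodelling enzyme, was at −0.28 and −0.19, and Stard3, a sterol carrier of late endosomes, at −0.16 and −0.19. Ch25h, which makes 25-hydroxycholesterol, was below the floor on each array (27.0 with S100a8 and 30.1 with S100a9, against 20.8 in the control), and was named after its values were seen.

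Set beside the promoter search, the 23 measured members with a CCAAT box in a window had log2 ratios with a median of −0.32 (S100a8) and −0.14 (S100a9), and 20 of 23 were lower with S100a8. The 6 measured members whose windows held none had medians of −0.02 and 0.01, with 3 of 6 lower. Box and role overlap in these genes, and the comparison carries no test. Box-holding members not lower with S100a8 were Fasn (3 boxes, 0.06), Insig2 (3 boxes, 0.02) and Pltp (1 box, 0.79). Of all compared genes, 47.5% were lower with S100a8, and those with a box were not counted apart.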

How the data were processed

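The deposited table holds MAS5 signal intensities of 45101 probe sets on 3 arrays, on a linear scale; MAS5 is named per the submitters' processing notes, and neither its version nor its scaling target is given in the sources used here. Its subtraction of mismatch probes leaves dim values noisy, and its scaling removes differences in the amount of RNA per cell. Per the labels' protocols, biotinylated cRNA was made from Trizol-extracted total RNA. Each array was grouped by the protein its label names.

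Genes were named from the platform annotation, which can be old; 34958 probe sets had 1 symbol. All 41 member symbols are in the RefSeq gene table of GRCm38.p6. Signals below a floor of 76.0, the 50th percentile over the 3 arrays without control probe sets, were set to it, log2 was taken, and each gene's brightest probe set by mean log2 signal was used. Log2 ratios were computed for each protein against control and for S100a9 against S100a8, with counts at 1.2-fold and 1.5-fold sizes and no p-value. Every member could be named, and of the other pathway lists the 2 lowest and 2 highest ratios for each protein. Promoters with a sterol regulatory element were to be printed, and further ones were added after values were seen. Members, lists, sizes and alternatives were chosen with earlier results of these data known. Alternatives were median centring, quantile normalization, centring in 20 brightness bins, a lower floor (30th percentile), a higher one (65th), log2(value + 1) without a floor, keeping dim genes, averaging all probe sets of a gene, preferring probe sets not ending in _x_at or _s_at, and, added after seeing the data, the mean of probe sets above the floor. Protein sequences were not used here. The scripts (Python 3.11.15, pandas 2.3.3, numpy 2.4.6) were tested on simulated data.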

Additional observations from a re-analysis of the deposited data

How the results depend on the processing

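Of 11 alternative settings, all but the 1.5-fold size give medians of the groups anew, and 179 of the 180 resulting medians moved by less than the probe set spread. The median of the mevalonate genes for S100a9 against S100a8 was 0.0538 with all probe sets of a gene averaged, in place of 0.22. The spread is that of single probe sets and is wider than several S100a9 medians are far from 0. Such a median could change sign and still count as moving by less. Over these settings the S100a8 medians ranged from −0.46 to −0.30 (mevalonate) and from −0.45 to −0.38 (squalene to cholesterol), and the S100a9 medians from −0.29 to −0.16 and from −0.16 to −0.09. The S100a8 median of the transport and LXR genes ranged from −0.03 to 0.06, and the S100a9 median of the fatty acid genes from −0.04 to 0.02. Counts of members past the size moved more. Except at the 1.5-fold size, the share of all compared genes past the size was not counted anew beside them. With a 1.5-fold size, 3 were lower and 1 higher with S100a8, 0 were lower with S100a9, and for S100a9 against S100a8 1 was lower and 0 were higher. Members lower with S100a9 numbered 3 after median centring and 9 with the mean of probe sets above the floor, in place of 5. Members higher with S100a9 than with S100a8 numbered 15 after median centring, 5 with brightness bins centred, 4 with all probe sets averaged and 5 with those above the floor averaged, in place of 8. Members higher with S100a8 numbered 1 in place of 2 with either mean and with probe sets not ending in _x_at or _s_at preferred; under the last, members lower with S100a9 than with S100a8 also numbered 1 in place of 2, since Pltp then had no value. Mvk and Idi1 turned with either mean of probe sets: Mvk for S100a8 against control (0.0184) and, for S100a9 against S100a8, Idi1 (−0.27) and also Mvk (−0.18); their probe sets disagree. No paired analysis was possible because each group held 1 array, and no array could be left out for the same reason.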
